A study of Mus musculus with 9 samples.

Results

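The comparison described here is that of mdx mice given GTx-026 with mdx mice given vehicle, in the gastrocnemius, the large muscle of the calf. It rests on 6 of the 9 libraries of the series, 3 in each of those groups, chosen by the group that the deposited columns name. The remaining 3 libraries, from wildtype mice given vehicle, are given as a reference and lend their spread to the test. GTx-026 was given under the skin at 10 mg/kg, and the mdx controls received vehicle. Every library carries the strain label C57BL/6, the mdx libraries included, and the mdx mutation is shared by treated and control animals. The shares of the beta-globin copies, given with the red cell genes below, differ between mdx libraries of the same group under that single label. The sources used here give no age, duration of treatment or number of doses. The design counts 3 animals in a group without saying which animal gave which library, and every p-value therefore weighs a difference against the spread of these libraries only. Muscle was taken as a whole, so fewer cells of a type and less RNA in each cell cannot be told apart in any value below.

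The mdx mouse carries a nonsense mutation in Dmd, the gene of dystrophin, a long protein that links the contractile apparatus of the muscle fibre to the membrane and the matrix outside it. Without it fibres tear, degenerate and regenerate, and inflammatory cells and connective tissue enter the muscle. The study's title places GTx-026 among agonists of the androgen receptor, a nuclear receptor that binds DNA once its ligand is bound and changes the transcription of its target genes. Androgens enlarge muscle fibres, and genes of polyamine synthesis are among those long known to answer to them in several tissues.

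The libraries held an estimated 25.1 to 38.0 M (mega) reads, and levels are given as CPM, a gene's reads for each M reads of its library after rescaling. All 15 markers of the muscle fibre that were looked for were measured in every library, the lowest value being 65.1 CPM. Library 1 of mdx vehicle stood apart from the 5 other mdx libraries. On the first principal component of the mdx libraries, which held 50.6% of the variance, it lay at -59.3 and the others between -4.81 and 23.29. Slow-fibre genes were low in it, with the slow myosin heavy chain Myh7 at 65.1 CPM against 341 to 5873 CPM in the 5 others. Of the mdx libraries, library 1 of mdx vehicle had the highest median level of the lymphoid and the macrophage marker lists. Only 5 of the 24 lymphoid markers were measured, namely Cd8a, Cd52, Coro1a, Rac2 and Selplg. Coro1a, a coat protein of leukocyte actin, was at 261 CPM against 6.31 to 74.8 CPM. Gpnmb, a membrane protein of lipid-laden macrophages, was at 422 CPM against 6.70 to 83.8 CPM. Not every macrophage marker was high in library 1. Cd163 was at 4.53 CPM against 5.72 to 17.3 CPM, and Mrc1 at 10.8 CPM against 10.5 to 26.9 CPM. Because library 1 stood apart, differences and list counts are given below with this library and without it. The part of these slow-fibre and leukocyte levels in the results was not tested.

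The target of the mutation was looked at before any other gene. Dmd was at 11.4, 21.7 and 21.7 CPM in the mdx vehicle libraries and at 17.5, 14.2 and 18.0 CPM with GTx-026, while the wildtype libraries held 41.4, 60 and 51.0 CPM. The wildtype libraries lay above all 6 mdx libraries, and the mdx groups overlapped (log2 fold change -0.08, SE 0.25, limma adjusted p = 1.00, without library 1 -0.38). Since a nonsense mutation leaves a transcript, this level checks the labels only indirectly.

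Of 15372 genes tested, 2 rose with GTx-026 and 0 fell at an adjusted p under 0.05 (limma with Benjamini-Hochberg adjustment), which is 0.013% of the genes in the upward direction and 0.0% in the downward one. The genes that rose were Inmt and Slc30a2. Without library 1 of mdx vehicle 1 gene rose, Inmt, which is 0.00651% of those tested. Counted at an unadjusted p under 0.05, 303 genes were higher (1.97%) and 184 lower (1.2%), and without library 1 there were 257 higher (1.67%) and 286 lower (1.86%). The 3 libraries of 1 group lay wholly above or below those of the other for 1045 genes (6.8%), 564 of them higher (3.67%) and 481 lower (3.13%) with GTx-026. Such separation of 3 from 3 libraries also arises by ordering alone. In both directions together, 3.17% of genes had an unadjusted p under 0.05, and 3.53% without library 1. Both are below the share of 0.05 that this threshold passes when no gene differs. A gene at these marks is described, not called. Whatever their p, 7858 genes were higher and 7514 lower with all libraries, and 7990 were higher and 7382 lower without library 1. The median log2 fold change over all genes was 0.00 and it was 0.01 without library 1. The rescaling sets it near 0, and with the deposited scaling it was -0.05.

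**Figure D1:**
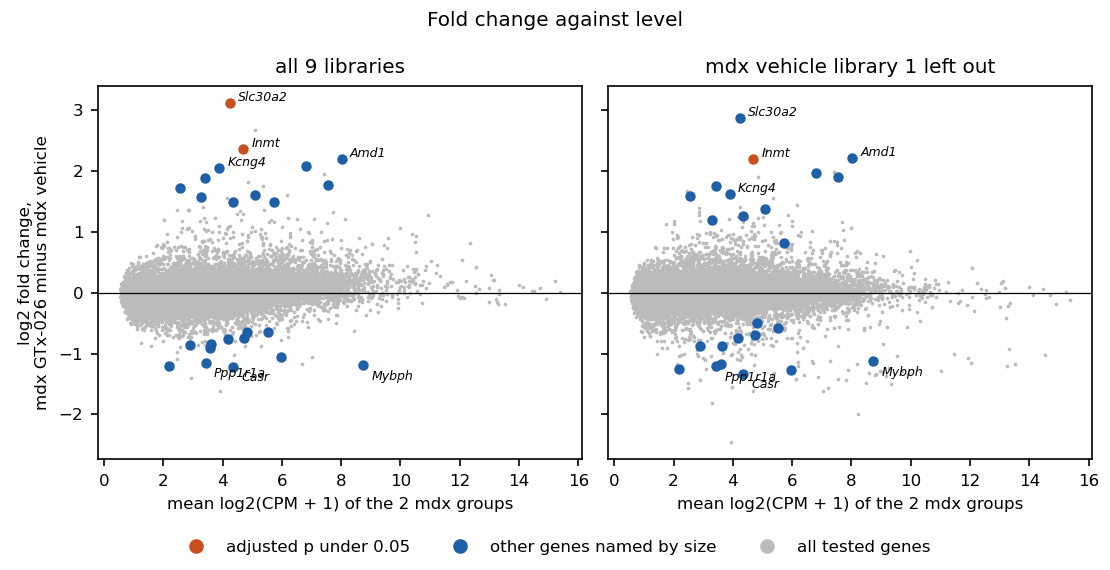
Log2 fold change of mdx GTx-026 minus mdx vehicle against the mean log2(CPM + 1) of the 2 mdx groups, with all 9 libraries (left) and with library 1 of mdx vehicle left out (right); grey points are the 15372 tested genes, orange points passed an adjusted p of 0.05 and blue points are the other genes named by size. Slc30a2 and Inmt are orange on the left and only Inmt on the right, and grey points under -1 at levels above 10 on the horizontal axis appear on the right alone.

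Inmt (chromosome 6, 55170627 to 55174990, GRCm38.p6) encodes indolethylamine N-methyltransferase, an enzyme that moves methyl groups from S-adenosylmethionine onto small amines. It had the smallest p of the comparison. The stretch of RefSeq promoter upstream of its start, chr6:55175051-55175240 on the minus strand of GRCm38.p6, is shown because it holds an exact tandem repeat of 46 bases, whose 2 copies stand in capitals.
Inmt: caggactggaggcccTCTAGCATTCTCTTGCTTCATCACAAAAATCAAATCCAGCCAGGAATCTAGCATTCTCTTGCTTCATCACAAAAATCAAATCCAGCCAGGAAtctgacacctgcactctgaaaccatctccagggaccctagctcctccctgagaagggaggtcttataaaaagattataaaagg
Among the 32851 promoter windows of the RefSeq table, 82 (0.25%) held an exact repeat at least this long.

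Inmt was at 5.70, 9.23 and 7.62 CPM in mdx vehicle libraries 1 to 3 and at 38.5, 41.2 and 46.3 CPM in the GTx-026 libraries. The wildtype libraries, at 6.03, 4.17 and 4.33 CPM, lay beside the mdx vehicle ones, so the 3 treated libraries stood alone and close together. In means this was 7.52 ± 1.77 CPM against 42.0 ± 3.99 CPM (SD, n = 3 each), 5.59 times as much. The log2 fold change was 2.35 (SE 0.20, limma adjusted p = 0.00692), and without library 1 it was 2.19 (adjusted p = 0.0142). Its size ran from 2.01 to 2.5 over all alternatives tried, but the call was lost without mdx vehicle library 3 (limma adjusted p = 0.0669) and without GTx-026 library 1 (adjusted p = 0.0633).

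The other genes that handle methyl groups did not share this size of difference. A list of the methionine cycle and small-molecule methyltransferases had 16 measured members. Of these 11 were higher and 5 lower, with a median log2 fold change of 0.11. Without library 1, 10 were higher and 6 lower (median 0.08). Besides Inmt, Ahcy had an unadjusted limma p under 0.05, so 2 members were higher and 0 lower at it, as without library 1. Of all genes, 1.97% were higher and 1.2% lower at that mark, and 1.67% and 1.86% without library 1. Ahcy, which clears the S-adenosylhomocysteine that methyltransferases leave behind, was at 33.3, 37.9 and 38.5 CPM in the vehicle-treated mdx libraries and 53.1, 49.1 and 43.0 CPM after GTx-026 (log2 fold change 0.39, SE 0.13, limma adjusted p = 1.00, without library 1 0.33). It shared 66.0% of its 50-base words with Gm4737, so its reads are uncertain.

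Slc30a2 (chromosome 4, 134343046 to 134354484) encodes ZnT2, a transporter that moves zinc out of the cytosol into vesicles. It had the largest rise of the comparison, from 1.59, 3.27 and 3.41 CPM in mdx vehicle to 24.5, 52.7 and 22.2 CPM with GTx-026. The lowest treated library lay above the highest of the 6 others, since the wildtype libraries held 2.36, 3.66 and 3.60 CPM. In means this was 2.76 ± 1.01 CPM against 33.1 ± 17.0 CPM (SD, n = 3 each), 12 times as much, with a log2 fold change of 3.12 (SE 0.34, limma adjusted p = 0.0349). Without library 1 it was 2.87 (adjusted p = 0.113), short of the threshold. Of the 9 libraries, only GTx-026 library 2 could be left out without losing this call, and over the other 8 the limma adjusted p ran from 0.0517 to 0.16. In a model of the 6 mdx libraries alone it was 0.233.

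Slc30a2 was also apart from the other zinc transporters. Of 15 measured members 10 were higher and 5 lower, with a median of 0.13. Without library 1, 12 were higher and 3 lower, with a median of 0.14. Slc39a1, which brings zinc into the cell, was at 41.1, 44.9 and 55.0 CPM in mdx vehicle and at 57.9, 53.8 and 64.1 CPM with GTx-026 (0.32, SE 0.14, limma adjusted p = 1.00, without library 1 0.23), and these groups overlapped. The metallothioneins Mt1 and Mt2, small proteins that bind zinc and copper, moved with library 1. Mt1 was at 32, 138 and 96.1 CPM in mdx vehicle and at 143, 148 and 158 CPM with GTx-026 (0.98, SE 0.43, limma adjusted p = 1.00), and without library 1 its log2 fold change was 0.37. Mt2 gave 1.05 with and 0.49 without that library. Its exons overlap those of Gm45774 on the opposite strand over 73.5% of their length, so reads of the pair may be mixed. The wildtype libraries, at 6.90 to 10.7 CPM for Mt1, lay below all mdx libraries.

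**Figure D2:**
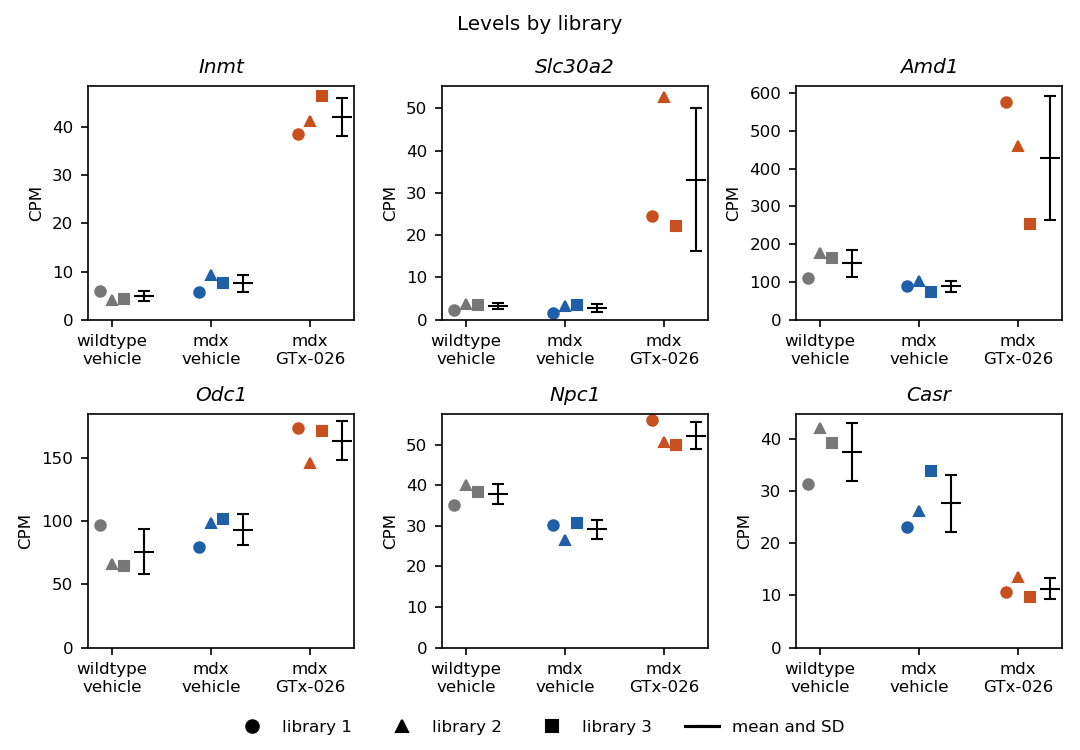
Level in CPM of 6 genes in each library, by group, with each group's mean and SD beside its points and a linear axis from 0. Inmt, Slc30a2 and Amd1 are higher in every GTx-026 library than in any of the 6 vehicle libraries, as are Odc1 and Npc1, and Casr is lower in every GTx-026 library than in any vehicle library.

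Among the genes named by size, Amd1 and Amd2 of polyamine synthesis had the next largest positive differences. Odc1 and Smox, described with them, differed less. Polyamines are small cations made from ornithine and S-adenosylmethionine, which bind nucleic acids and are needed for growth. Odc1 encodes ornithine decarboxylase, the entry step, and Amd1 encodes S-adenosylmethionine decarboxylase, which supplies the aminopropyl groups. Smox encodes spermine oxidase, which turns spermine back to spermidine.

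Amd1 (chromosome 10, 40287458 to 40302188) was at 90.0, 101 and 73.9 CPM in mdx vehicle and at 575, 459 and 252 CPM with GTx-026. The groups did not overlap, and the treated libraries also lay above the wildtype ones, which held 110, 178 and 162 CPM. Its log2 fold change was 2.2 (SE 0.30, limma adjusted p = 0.137) and 2.22 without library 1. Amd2, a retrocopy, was at 33.6, 52.0 and 36.8 CPM against 253, 176 and 116 CPM (2.08, limma adjusted p = 0.137, without library 1 1.96). Amd1 shared 76.7% of its 50-base words with Amd2, and Amd2 85.7% with Amd1, so reads of the pair cannot be assigned with certainty. Summed, the pair was at 129 ± 21.8 CPM in the vehicle-treated mdx libraries and 611 ± 231 CPM after GTx-026 (SD, n = 3 each), a log2 difference of 2.17, and of 2.14 without library 1. Amd1 and Amd2 passed the adjusted threshold with the deposited scaling and when libraries were weighted by their agreement.

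Odc1 (chromosome 12, 17544808 to 17551502) was at 79.5, 98.2 and 102 CPM in mdx vehicle and at 173, 146 and 171 CPM with GTx-026. Again the groups did not overlap, and the wildtype libraries held 96.4, 66.1 and 64.6 CPM (log2 fold change 0.81, limma adjusted p = 0.712, without library 1 0.70). Odc1 shared 24.3% of its words with other genes. Smox, at 72.1, 171 and 99.6 CPM against 494, 278 and 141 CPM, did overlap (1.32, SE 0.47, limma adjusted p = 1.00, without library 1 1.03). In GTx-026 library 1 Amd1, Amd2 and Smox were highest, and in library 3 they were lowest.

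Over the whole list of polyamine synthesis, turnover and regulation, 13 of 19 measured members were higher and 6 lower, with a median log2 fold change of 0.10. Without library 1, 12 were higher and 7 lower (median 0.06). At an unadjusted limma p under 0.05 there were 4 higher, the genes named above, and 0 lower, where 1.97% and 1.2% of all genes were. Without library 1 the counts were 3 and 0, where 1.67% and 1.86% of all genes were. Amd1 and Amd2 may share reads and are not separate members. The list was chosen with earlier results of these data known. With all libraries, the members other than Amd1, Amd2, Odc1 and Smox lay between -0.18 and 0.29. Spermidine synthase Srm was at 13.1, 9.70 and 11.1 CPM against 11.0, 13.7 and 14.0 CPM, and spermine synthase Sms at 60.2, 67.0 and 59.1 CPM against 70.1, 60.3 and 56.2 CPM. These synthase genes, and the antizymes Oaz1 and Oaz2 that restrain ornithine decarboxylase, overlapped between the groups.

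Genes known to answer to the androgen or the glucocorticoid receptor, which bind like DNA elements, split with library 1. Of 23 measured, 15 were higher and 8 lower with all libraries (median 0.33), and 11 were higher and 12 lower without library 1 (median -0.07). With all libraries 8 were higher and 1 lower at an unadjusted p under 0.05, where 1.97% and 1.2% of all genes were. This list was chosen with earlier results of these data known, so the shares are no test of it. Among the 8, Amd1, Amd2, Odc1, Smox, Mt1 and Mt2 also belong to the polyamine or metallothionein lists. Without library 1 the counts were 4 and 2, where the shares of all genes were 1.67% and 1.86%. The 4 that were higher in both fits were Amd1, Amd2, Odc1 and Tiparp, of which Amd1 and Amd2 may share reads. Tiparp, an ADP-ribosyltransferase, was at 14.6, 17.1 and 15.9 CPM in mdx vehicle and at 40.1, 28.1 and 28.5 CPM with GTx-026 (0.97, limma adjusted p = 0.419, without library 1 0.91), with no overlap. Fkbp5, a co-chaperone of the steroid receptors, was at 12.7, 56.2 and 25.3 CPM against 73.5, 63.3 and 47.6 CPM (1.17, SE 0.42, limma adjusted p = 1.00). The groups overlapped, and without library 1, which held the lowest value, the difference was 0.67. Klf15, a transcription factor that glucocorticoids switch on, was lower, at 34.9, 56.7 and 64.3 CPM against 33.1, 33.5 and 36.8 CPM (-0.53, SE 0.22, limma adjusted p = 1.00). Here library 1 held the low value of its group, and without it the difference was -0.79.

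Among the steroid receptors, their chaperones and coregulators 8 of 17 measured members were higher and 9 lower (median -0.01, without library 1 6 higher and -0.03). Esr1, the estrogen receptor alpha gene, was at 22.2, 26.6 and 24.6 CPM in mdx vehicle and at 19.2, 18.2 and 15.6 CPM with GTx-026, without overlap (-0.45, SE 0.13, limma adjusted p = 1.00, without library 1 -0.51). The glucocorticoid receptor gene Nr3c1 was at 58.2, 107 and 79.1 CPM against 81.1, 64.8 and 78.7 CPM, with overlap.

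Promoters were searched for AGAACA on either strand, the element of 6 bases that receptors of this class bind in pairs. RefSeq windows of 300 bases were matched for 17 of 24 genes, namely Inmt, Slc30a2 and the genes named for the size of their difference. The element stood in the windows of 1 of 10 genes that were higher and of 0 of 7 that were lower, where 21.28% of the 27025 genes of the table held it. The gene was Mchr1, and the 250 bases before its start, chr15:81235249-81235498 on the plus strand of GRCm38.p6, are shown with the element in capitals, its first base 216 bases before the start.
Mchr1: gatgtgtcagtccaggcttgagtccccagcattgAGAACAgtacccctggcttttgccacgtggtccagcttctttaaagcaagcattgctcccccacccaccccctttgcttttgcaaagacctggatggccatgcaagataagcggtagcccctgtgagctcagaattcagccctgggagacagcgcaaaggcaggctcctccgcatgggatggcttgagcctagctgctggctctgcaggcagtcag
The pair of elements written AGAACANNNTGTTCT was in 3 windows of the table and in 0 of the windows matched here. A match says only that these letters are present in the window.

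Beside Inmt, Slc30a2, Amd1 and Amd2, the genes named for a large positive difference were Kcng4, Frzb, Hbb-b1, Mchr1, Cbr2, Pla1a, Tfcp2l1 and St3gal5. They had an unadjusted p under 0.05 with and without library 1 and no overlap between the groups. Of the 10617 genes at 5 CPM or more in either mdx group, 118 higher and 37 lower met these marks. None of these 8 passed the adjusted threshold. Kcng4, a modifier subunit of voltage-gated potassium channels, was at 2.05, 6.78 and 6.42 CPM in mdx vehicle and at 24.9, 25.9 and 17.2 CPM with GTx-026 (2.05, limma adjusted p = 0.419, without library 1 1.61). Frzb, a secreted antagonist of Wnt ligands, was at 2.67, 2.68 and 5.45 CPM against 11.3, 16.0 and 20.0 CPM (1.88, limma adjusted p = 0.397, without library 1 1.75). Mchr1, the receptor of melanin-concentrating hormone, was at 0.98, 1.03 and 2.34 CPM against 3.22, 5.45 and 16.5 CPM, a range in which 1 treated library was far above its fellows (1.72, SE 0.46, limma adjusted p = 1.00, without library 1 1.59).

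Cbr2, a carbonyl reductase, was at 10.8, 17.0 and 19.2 CPM in mdx vehicle and at 68.2, 49.0 and 34.2 CPM with GTx-026 (1.61, limma adjusted p = 0.361, without library 1 1.38). Tfcp2l1, a transcription factor of the grainyhead family, was at 6.71, 12.6 and 10.2 CPM against 35.2, 29.4 and 22.3 CPM (1.48, limma adjusted p = 0.181, without library 1 1.26). In both genes the wildtype libraries, at 10.2 to 16.0 CPM for Cbr2 and 5.75 to 6.04 CPM for Tfcp2l1, were below the treated ones. Pla1a, a phospholipase specific for phosphatidylserine, was at 1.87, 5.13 and 5.29 CPM against 15.4, 10.1 and 14.8 CPM (1.57, SE 0.36, limma adjusted p = 0.712, without library 1 1.20). St3gal5, the synthase of the ganglioside GM3, was at 9.13, 42.5 and 36.9 CPM against 46.6, 71.9 and 104 CPM, so its low value was again that of library 1. Its difference of 1.48 was 0.82 without that library, and its wildtype libraries, at 48.9 to 62.0 CPM, lay with the treated ones.

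The genes named for a large negative difference were Casr, Mybph, Ppp1r1a, Kcnc4, Mapk8ip1, Col24a1, Zfp503, Gramd1b, Sesn1 and Gstm2, with 2 predicted genes that are only counted here. None passed the adjusted threshold. Casr (chromosome 16, 36490585 to 36562141), the calcium-sensing receptor, was at 23, 26 and 33.7 CPM in mdx vehicle and at 10.7, 13.5 and 9.63 CPM with GTx-026. Its wildtype libraries held 31.2, 42.0 and 39.1 CPM, so that all 6 vehicle libraries lay above the treated ones (-1.21, SE 0.19, limma adjusted p = 0.181, without library 1 -1.33). Mybph, a myosin-binding protein of the thick filament, was at 622, 546 and 548 CPM against 393, 311 and 126 CPM (-1.19, SE 0.37, limma adjusted p = 1.00, without library 1 -1.13). Its exons overlap those of Adora1 on the opposite strand over 49.9% of their length. Ppp1r1a, an inhibitor of protein phosphatase 1, was at 11.8, 16.1 and 11.2 CPM against 1.48, 7.6 and 10.4 CPM (-1.15, SE 0.47, limma adjusted p = 1.00, without library 1 -1.21), and its wildtype libraries, at 81.9 to 94.5 CPM, were far above both mdx groups.

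Kcnc4, a voltage-gated potassium channel, was at 58.9, 63.9 and 130 CPM in mdx vehicle and at 40.0, 25 and 51.1 CPM with GTx-026 (-1.06, SE 0.32, limma adjusted p = 1.00, without library 1 -1.27). Mapk8ip1, a scaffold of the JNK kinases, was at 9.53, 14.2 and 20.6 CPM against 9.45, 6.08 and 6.15 CPM, the closest of these groups (-0.90, without library 1 -1.16). Gramd1b, a sterol carrier between membranes, was at 34.4, 30.4 and 32.1 CPM against 19.6, 21.9 and 15.7 CPM (-0.74, limma adjusted p = 0.499, without library 1 -0.70). Sesn1, a stress-induced brake on mTORC1, was at 40.7, 26.2 and 33.0 CPM against 15.2, 24.3 and 23.2 CPM (-0.65, SE 0.21, limma adjusted p = 1.00, without library 1 -0.50). The collagen gene Col24a1 (-0.84, without library 1 -0.88), the zinc finger gene Zfp503 (-0.76, without library 1 -0.75) and the glutathione transferase gene Gstm2 (-0.65, without library 1 -0.58) completed the set.

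**Figure D3:**
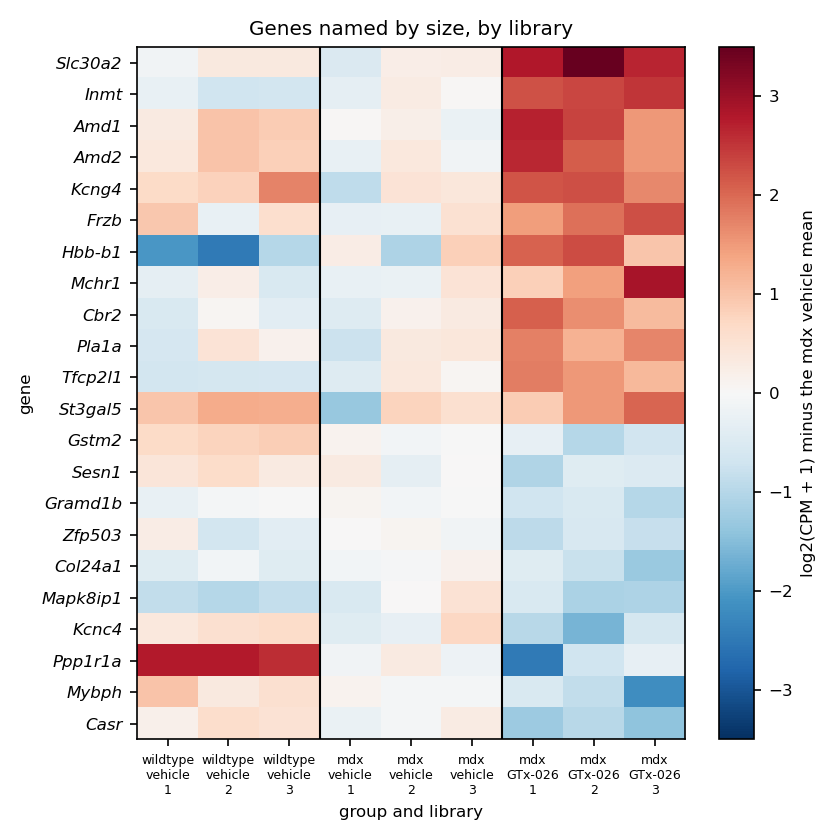
Colour gives log2(CPM + 1) minus the mean of the 3 mdx vehicle libraries for the 22 genes named by size (rows) in each of the 9 libraries (columns), red above and blue below. The upper rows are red in all 3 GTx-026 libraries; St3gal5 is pale blue in library 1 of mdx vehicle, Ppp1r1a is dark red in the wildtype libraries alone, and Hbb-b1 is blue in the wildtype libraries.

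The muscle fibre genes were then taken by role. The slow contractile apparatus depended on library 1 of mdx vehicle. With it 12 of 14 genes were higher with GTx-026 and the median was 0.24, and without it 0 were higher and the median was -1.14, while 0 of 14 had an unadjusted limma p under 0.05 in either fit. The libraries of each group lay far apart: Myh7 was at 65.1, 3120 and 2468 CPM in mdx vehicle, at 341, 742 and 5873 CPM with GTx-026 and at 316, 3912 and 1127 CPM in wildtype. The median of the fast apparatus was steadier, with 13 of 19 genes higher (median 0.08) and 10 of 19 without library 1 (median 0.00). Single members were not all steady. Myh2 was at 174, 1875 and 1770 CPM in mdx vehicle and at 785, 2191 and 4778 CPM with GTx-026 (1.28, SE 0.92, without library 1 0.15). Myh1 was at 1136 CPM in library 1 against 3443 to 10281 CPM in the other mdx libraries. Myh4, the heavy chain of the fastest fibres, was at 34075, 46181 and 43009 CPM against 65195, 38419 and 27881 CPM, so the treated libraries spanned the vehicle ones.

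Of 18 genes of embryonic and regenerating fibres 17 were higher with all libraries (median 0.36) and 10 without library 1 (median 0.03). The exception in the fuller fit was Igfn1, which encodes a Z-disc protein. It was at 70.5, 247 and 215 CPM in mdx vehicle and at 127, 68.2 and 47.5 CPM with GTx-026 (-1.05, SE 0.53, limma adjusted p = 1.00, without library 1 -1.62). Satellite cell and myogenic regulator genes gave 12 of 16 higher (median 0.11) and 7 of 16 without library 1 (median -0.03), and the largest difference was that of Myod1 at 0.50 (0.33 without library 1). Of the dystrophin-associated proteins 14 of 18 were higher (median 0.16) and 9 of 18 without library 1 (median 0.02). In this list Cav3, the caveolin of muscle membranes, was at 44.2, 66.0 and 73.4 CPM against 99.3, 79.2 and 88.2 CPM, without overlap (0.56, SE 0.19, limma adjusted p = 1.00, without library 1 0.34).

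At the neuromuscular junction, Musk was the member that stood out. It encodes the receptor kinase that gathers acetylcholine receptors under the nerve. Musk was at 13.5, 34.0 and 14.7 CPM in mdx vehicle and at 43.5, 41.4 and 38.6 CPM with GTx-026, and the wildtype libraries held 10.2, 14.2 and 12.4 CPM (1.08, SE 0.30, limma adjusted p = 1.00, without library 1 0.85). The junction and denervation genes as a list were higher in 11 of 16 members (median 0.11), and without library 1 in 4 of 16 (median -0.10). Calcium handling genes were higher in 14 of 20 (median 0.07), and in 8 of 20 without library 1 (median -0.00).

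Among genes of growth control, the insulin-like growth factor and mTOR list held Igfbp6 and Eif4ebp1 above and Igfbp3 below at an unadjusted limma p under 0.05. Of all genes, 1.97% were higher and 1.2% lower at that mark. Without library 1 the list counts were 2 and 1, Igfbp3 not among them, where 1.67% and 1.86% of all genes were. Eif4ebp1, a repressor of translation that mTORC1 switches off, was at 36.2, 47.1 and 47.7 CPM in mdx vehicle and at 57.6, 62.8 and 73.0 CPM with GTx-026 (0.55, SE 0.16, limma adjusted p = 1.00, without library 1 0.43). Igfbp6, a binding protein of the growth factors, was at 10.4, 20.9 and 30.4 CPM against 42.4, 30.7 and 44.0 CPM (0.99, without library 1 0.59). Neither of these groups overlapped, whereas those of Igfbp3 did (-0.58, without library 1 -0.41). In all 18 of 24 members were higher (median 0.10), and without library 1 10 of 24 (median -0.07).

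Genes of the myostatin and activin pathway, which limits muscle size, were higher in 13 of 19 (median 0.04), and in 9 of 19 without library 1 (median -0.00). Myostatin itself, Mstn, was at 22.4, 21.6 and 21.4 CPM in mdx vehicle and at 38.8, 24.4 and 26.1 CPM with GTx-026 (0.40, SE 0.24, limma adjusted p = 1.00, without library 1 0.42). Its groups did not overlap, and the wildtype libraries, at 33.4 to 58.8 CPM, were on the whole higher than both. Atrophy and autophagy genes were higher in 17 of 23 (median 0.08), and in 9 of 23 without library 1 (median -0.07). The ubiquitin ligase genes Trim63 and Fbxo32 overlapped between the groups, at 0.17 and 0.26, and without library 1 at -0.14 and 0.049. The members past an unadjusted limma p of 0.05 were Mt1 and Mt2 above and Klf15 and Sesn1 below, all described earlier. Of all genes, 1.97% were higher and 1.2% lower at that mark. Without library 1 the atrophy counts were 0 higher and 2 lower, where 1.67% and 1.86% of all genes were. Proteasome subunits (23 of 26 higher, median 0.11) and ribosomal proteins (11 of 36 higher, median -0.04) had narrow ranges, and without library 1 they gave 15 of 26 and 34 of 36 higher.

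Mitochondrial genes were mostly higher with all libraries, and the differences were small without library 1. Of the oxidative phosphorylation genes 45 of 46 were higher with all libraries (median 0.28) and 32 of 46 without library 1 (median 0.06). The tricarboxylic acid cycle gave 22 of 22 (median 0.29) and 17 of 22 (median 0.03), and fatty acid oxidation 25 of 28 (median 0.26) and 5 of 28 (median -0.08). A single member of the 3 lists, the complex I subunit gene Ndufb5, had an unadjusted limma p under 0.05, at 206, 288 and 214 CPM against 337, 310 and 317 CPM (0.46, SE 0.19, without library 1 0.37). Of all genes, 1.97% were higher at that mark. Without library 1, where 1.67% of all genes were higher, 0 members of the 3 lists passed it. Glycolysis was higher in 20 of 24 (median 0.17) and in 15 of 24 without library 1 (median 0.04). In library 1 Uqcrc1, a core subunit of complex III, was at 304 CPM against 550 to 716 CPM in the other mdx libraries.

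The lists of cholesterol handling and lysosomal genes had medians near 0, and Npc1 did not overlap between the groups. Npc1, which lets cholesterol out of lysosomes, was at 30.1, 26.5 and 30.7 CPM in mdx vehicle and at 56.1, 50.5 and 49.9 CPM with GTx-026, with 35.0, 40.1 and 38.3 CPM in wildtype (0.82, SE 0.12, limma adjusted p = 0.179, without library 1 0.85). The synthesis and uptake list was higher in 11 of 24 (median -0.03) and the lysosome list in 6 of 21 (median -0.08), and without library 1 in 15 of 24 (0.07) and 16 of 21 (0.14).

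Of 22 antioxidant genes 3 were higher at an unadjusted limma p under 0.05 with and without library 1, where 1.97% of all genes were with it and 1.67% without it. This list, too, was chosen with earlier results of these data known. Gpx3, the secreted glutathione peroxidase, was at 123, 122 and 142 CPM in mdx vehicle and at 200, 227 and 289 CPM with GTx-026 (0.87, limma adjusted p = 0.721, without library 1 0.83). Srxn1, which repairs oxidised peroxiredoxins, was at 30.4, 40.7 and 31.1 CPM against 43.9, 54.3 and 47.6 CPM (0.51, without library 1 0.43). Hmox1, heme oxygenase 1, was at 7.90, 5.87 and 8.08 CPM against 10.2, 10.5 and 14.4 CPM (0.62, without library 1 0.67). None of these groups overlapped. The list was higher in 17 of 22 (median 0.20), and in 15 of 22 without library 1 (median 0.18), one of the smaller shifts.

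Macrophage, lymphoid, antigen presentation, interferon and chemokine genes had higher medians without library 1, and neutrophil and mast cell genes a lower one. The medians of lymphoid and antigen presentation genes turned from negative to positive. Of 24 lymphoid markers 5 were measured, Cd8a, Cd52, Coro1a, Rac2 and Selplg. These 5 were all lower with all libraries (median -0.49) and all higher without library 1 (median 0.96). Among them 0 had an unadjusted limma p under 0.05 in either fit. Their summed level was 563, 15.8 and 31.8 CPM in the vehicle-treated mdx libraries and 26, 150 and 29.7 CPM after GTx-026. The other 19, the T-cell receptor chain Cd3e among them, were not analysed here. The 18 macrophage markers measured of 24 were higher in 11 (median 0.28) and, without library 1, in 18 (median 0.61), with sums of 1335, 195 and 708 CPM against 511, 577 and 813 CPM. The macrophage marker Adgre1 was likewise not analysed here. Antigen presentation gave 3 of 15 higher (median -0.15) and 15 of 15 without library 1 (median 0.46). Cd163, a scavenger receptor of resident macrophages, was at 4.53, 5.72 and 10.3 CPM against 10.9, 8.45 and 17.3 CPM (0.76, SE 0.32, limma adjusted p = 1.00, without library 1 0.54). Interferon-induced genes gave 15 of 20 higher (median 0.08) and 19 of 20 without library 1 (median 0.37), chemokines and cytokines 8 of 14 (0.04) and 11 of 14 (0.43), and neutrophil and mast cell genes 3 of 5 (0.23) and 5 of 5 (0.12). These 5 were Cxcr2, Cma1, Mcpt4, Kit and Tpsb2. The other 10 of the 15 neutrophil and mast cell markers, S100a8 and S100a9 among them, were not analysed here. Tgfb2, a growth factor of the TGF-beta family, was at 19, 19.3 and 18.8 CPM in mdx vehicle and at 27.7, 23.3 and 30.8 CPM with GTx-026, without overlap (0.49, SE 0.17, limma adjusted p = 1.00, without library 1 0.49).

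**Figure D4:**
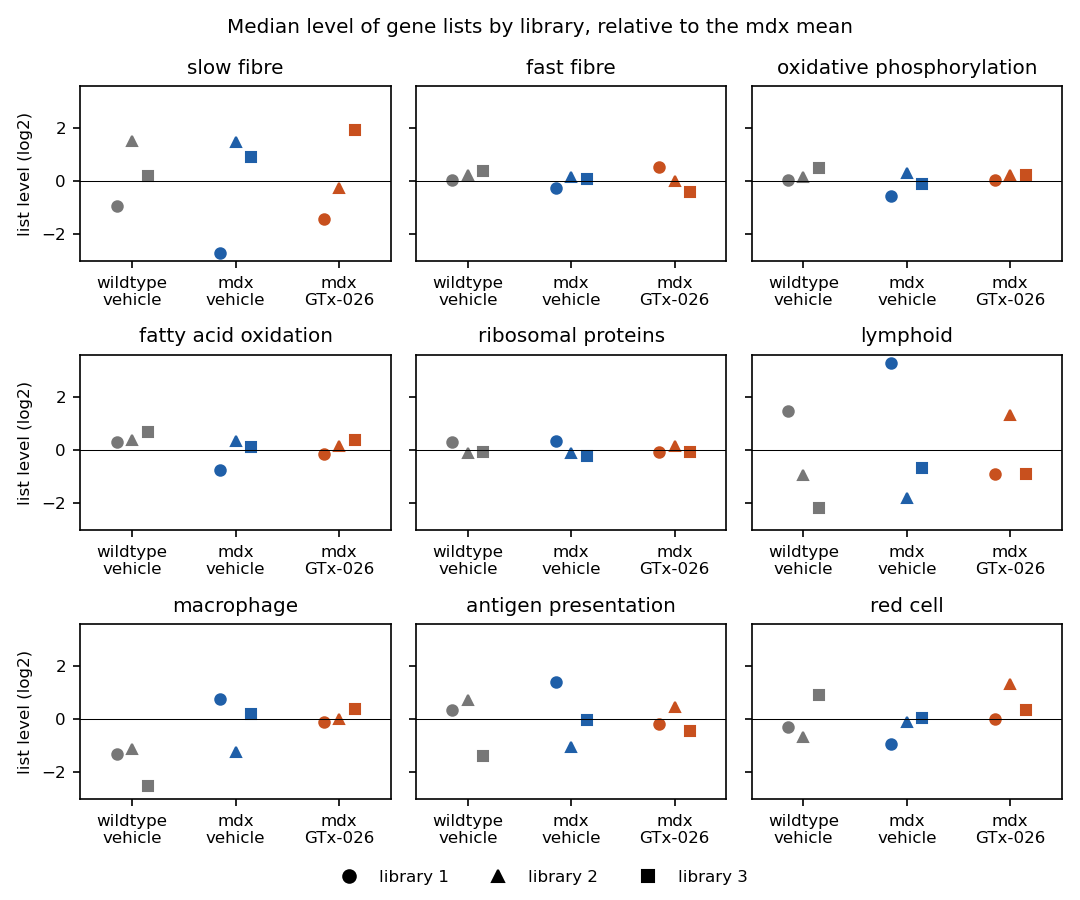
Level of 9 gene lists in each library, as the median over a list's members of log2(CPM + 1) minus the mean of the 6 mdx libraries, by group. Library 1 of mdx vehicle (blue circle) is lowest of the mdx libraries for slow fibre, oxidative phosphorylation, fatty acid oxidation and red cell genes and highest for lymphoid, macrophage, antigen presentation and ribosomal protein genes.

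Most connective tissue and vessel genes had positive differences, few of them beyond the spread of the libraries. Collagens and other matrix genes gave 26 of 32 higher (median 0.40) and 23 of 32 without library 1 (median 0.23). The basement membrane collagens Col4a1 and Col4a2 were higher at an unadjusted limma p under 0.05, and 0 members were lower. Of all genes, 1.97% were higher and 1.2% lower at that mark. Without library 1 the matrix counts were 0 higher and 1 lower, where 1.67% and 1.86% of all genes were. Col4a2 was at 80.1, 84.1 and 145 CPM in mdx vehicle and at 167, 137 and 177 CPM with GTx-026, with overlap (0.68, SE 0.28, without library 1 0.53). Markers of fibro-adipogenic progenitors were higher in 11 of 14 (median 0.39) and in 12 of 14 without library 1 (median 0.20). Gsn, the actin-severing gelsolin, was at 364, 636 and 1044 CPM against 1594, 1058 and 1326 CPM, and the groups met almost at their edges (1.07, SE 0.35, limma adjusted p = 1.00, without library 1 0.68).

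Adipocyte genes were higher in 12 of 12 with all libraries (median 0.44) and in 8 of 12 without library 1 (median 0.17), and their spread within a group was wide. Cfd, the adipocyte protease adipsin, was at 40.3, 2.80 and 370 CPM in mdx vehicle, at 83.1, 424 and 91.8 CPM with GTx-026 and at 865, 26 and 11.9 CPM in wildtype. Endothelial genes gave 13 of 15 higher (median 0.15) and 9 of 15 without library 1 (median 0.09). Smooth muscle and pericyte genes gave 11 of 12 (0.35) and 8 of 12 (0.07). Schwann cell and nerve genes gave 7 of 9 in both fits (0.24, 0.15 without library 1).

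Red cell genes were higher in 9 of 9 (median 0.87), and in 7 of 9 without library 1 (median 0.26). The beta-globin genes behaved differently by copy. Mouse strains carry either the pair Hbb-b1 and Hbb-b2 or the pair Hbb-bs and Hbb-bt. Hbb-b1 and Hbb-b2 held 91.7, 13.1 and 57.2% of beta-globin in mdx vehicle, 91.2, 54.7 and 56.4% with GTx-026 and between 9.74 and 10.6% in wildtype. Hbb-b1 was at 91.6, 35.3 and 137 CPM in mdx vehicle and at 323, 374 and 151 CPM with GTx-026 (1.77, SE 0.54, limma adjusted p = 1.00, without library 1 1.90). All 4 beta-globin genes summed to 230 ± 103 CPM in the vehicle-treated mdx libraries and 502 ± 259 CPM after GTx-026 (SD, n = 3 each), a log2 difference of 1.13 (0.67 without library 1). Hbb-bs and Hbb-bt summed to 9.34, 262 and 118 CPM in mdx vehicle and to 36.3, 361 and 131 CPM with GTx-026, a log2 difference of 0.82, and of -0.55 without library 1. The shares of the copies differed between libraries of the same group, although all carry 1 strain label. Whether these animals share a genetic background was not tested, nor was the part of it in the Hbb-b1 value or in other results.

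Immediate early genes, which respond within minutes to stimuli and to handling of tissue, were lower in 12 of 15 (median -0.26), and in 11 of 15 without library 1 (median -0.39). Btg2 was at 37.7, 47.5 and 26.8 CPM in mdx vehicle and at 22.2, 29.2 and 16.2 CPM with GTx-026, with overlap (-0.70, SE 0.25, limma adjusted p = 1.00, without library 1 -0.68). In mdx vehicle the list's level was highest in library 2, at 0.60, against -0.16 and -0.14 in the others. Clock genes were higher in 10 of 18 (median 0.09, without library 1 7 of 18 and -0.11). Bhlhe41, a repressor of the clock, was at 42.3, 39.0 and 39.8 CPM against 53.1, 50.2 and 46.4 CPM (0.30, SE 0.13, limma adjusted p = 1.00, without library 1 0.33). Cell cycle genes were lower in 13 of 16 (median -0.13) and in 5 of 16 without library 1 (median 0.03). Of the 22 genes on that list, Mki67, Top2a, Ccnb1, Ccnb2 and Cdk1 were among those not analysed here. Gadd45b, a stress-induced gene of that list, was at 31.7, 34.6 and 14.7 CPM against 16.5, 10.8 and 9.66 CPM, with overlap (-1.02, without library 1 -0.86). Unfolded protein response genes were higher in 13 of 22 (median 0.09) and translation and nucleolar genes in 14 of 20 (median 0.07), and without library 1 in 16 of 22 (0.16) and 12 of 20 (0.05).

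Of 43 lists described in this way, 16 had medians of opposite sign without library 1 of mdx vehicle. Lists of many kinds kept the sign of theirs, the polyamine, methyl group, zinc transport and antioxidant lists among them. So did, for example, the oxidative phosphorylation, tricarboxylic acid cycle, glycolysis, macrophage, interferon and red cell lists. The matrix and progenitor lists kept it too, with medians going from 0.40 to 0.23 and from 0.39 to 0.20. By limma 0 list members other than Inmt and Slc30a2 passed the adjusted threshold in either fit. Over all genes 2 passed it with all libraries (0.013%) and 1 without library 1 (0.00651%), and these were the same list members. At the looser unadjusted limma p under 0.05 there were 487 genes (3.17%) with all libraries and 543 (3.53%) without library 1.

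**Figure D5:**
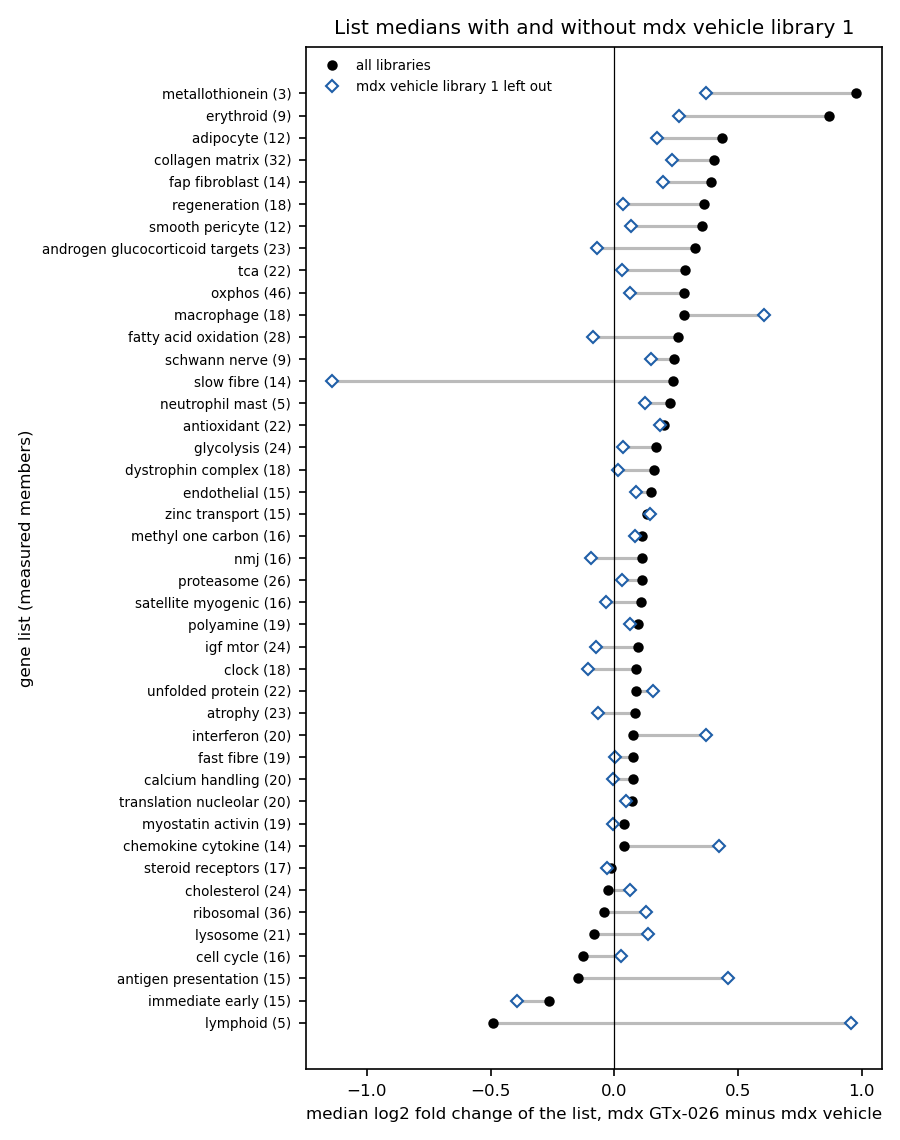
Median log2 fold change of each of 43 gene lists, mdx GTx-026 minus mdx vehicle, with all libraries (black) and with library 1 of mdx vehicle left out (blue, open); the number of measured members stands after each name. The slow fibre list moves from 0.24 to -1.14 and the lymphoid list from -0.49 to 0.96, while the polyamine, zinc transport and antioxidant lists hardly move.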

How the data were processed

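Polyadenylated RNA of gastrocnemius was sequenced on an Ion Torrent Proton, per the labels' protocols. Per the submitters' processing notes, which give neither role nor order, the tools were HTSeq 0.6.1p1, DESeq2 1.6.3, TopHat2 2.0.13, SAMtools 0.1.19 and Bowtie2 2.2.4, with the build GRCm38.p3. Whether counting used strand, and on which annotation, is not given in the sources used here.

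What the authors deposited is a signal, a scaled read number for each of 46442 sequence records. Below 10000, values of a library were multiples of 1 step to within 0.1 read. The smallest value above 0 was 10, and a record at 0 was at 0 in its whole group, so low values are read as listed at 0. Per the file headers the authors also give group means, a ratio and a p-value for each pair of groups, which were not used. No column of single libraries was set aside. The columns name the group only, so a library's number pairs nothing.

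Records above 0 in all 9 libraries were summed by symbol, which gave 15372 genes of 15593 symbols. Left out were 4 records with no symbol, together 0.000646% of the deposited signal. Libraries were rescaled by an unweighted trimmed mean of log ratios (30% trimmed on the ratio, 5% on the level; factors 0.874 to 1.30). Tests were made on log2(CPM + 1) in limma 3.58.1 (R 4.3.3), the prior variance following the level, all 9 libraries in 1 model, 6 residual and 3.54 prior degrees of freedom, two-sided, adjusted by Benjamini-Hochberg over all genes with a threshold of 0.05. Fold changes on this scale understate the change of low genes. Libraries held an estimated 25.1 to 38.0 M reads. The plan named count models for raw counts. They were not run, since the values are scaled, and the planned fit for scaled values was used. The scripts were tested on simulated data.

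The named genes were Dmd; genes past the adjusted threshold; up to 12 genes in each direction with the largest difference among those at an unadjusted p under 0.05 with and without library 1 of mdx vehicle, with no overlap and 5 CPM or more in 1 group; the members of each list at an unadjusted p under 0.05, 4 at most, or else that with the largest difference; and up to 3 members of a list farthest from the other libraries in library 1. Fkbp5, Mstn, Nr3c1, Trim63, Fbxo32, Srm, Sms, Oaz1, Oaz2 and Myh4 were chosen outside this rule, after their values were seen. Some genes that the rule names are not reported here. The comparison, the lists and the rule were chosen with earlier results of these data known, and the lists were given no test. Gene coordinates and promoters are from RefSeq for GRCm38.p6, and 50-base words were compared between GENCODE M21 transcripts.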

Additional observations from a re-analysis of the deposited data

How the results depend on the processing

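The comparison rests on 3 libraries a group, and single libraries decide its calls. No paired analysis was possible because the deposited columns name only a group, so their numbers pair no samples. The count-model alternatives, edgeR and DESeq2, were not run, since the deposited values are scaled. The number of genes past the adjusted threshold, all of them higher, was 2 in the fit reported. It was 4 with the deposited scaling and with array weights (Inmt, Slc30a2, Amd1 and Amd2). Of these, Amd1 and Amd2 may share reads and are not separate calls. The number was 1 (Inmt) with a pseudocount of 4 CPM and with only the mdx libraries. It was also 1 (Inmt) in a fit added after seeing the data, with only the mdx libraries and library 1 of mdx vehicle left out too. Leaving out 1 library at a time gave between 0 and 2. The 2 were Inmt and Slc30a2 without GTx-026 library 2, and Inmt and Amd1 without GTx-026 library 3. The number was 0 by limma without mdx vehicle library 3 and without GTx-026 library 1. The genes lower stayed at 0 throughout. At an unadjusted p under 0.05 the genes higher ran from 254 to 592 and those lower from 143 to 336 when 1 library was left out. Those lower were 84 with a filter at a mean of 5 CPM, which tests fewer genes, and 278 with array weights. Named genes without a call changed sign in places, and the cause was not tested. Without library 1 of mdx vehicle, with or without the wildtype libraries, Actn2 was at -0.083 (0.96 in the fit reported), Cd8a at 0.34, Ciita at 0.19, Cxcr2 at 0.10 and Irf1 at 0.13 (all 4 below 0 in the fit reported). With array weights Cd8a was at 0.11, Ciita at 0.022 and Cxcr2 at 0.15. When each library in turn was left out, Actn2 ran from -0.083 to 1.55, Cd8a from -1.20 to 0.34, Ciita from -1.16 to 0.19, Cxcr2 from -0.31 to 0.10, Dmd from -0.38 to 0.063 and Irf1 from -0.71 to 0.13. The deposited scaling moved the median of all genes to -0.05. List medians changed sign in 16 of 43 lists without library 1 and in 14 with array weights.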

Other observations

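Symbols listed at 0 in a whole group were not tested, and their levels are given as CPM before rescaling. A 0 in these data can stand for a low value, so no fold is given. With GTx-026 59 symbols were listed at 0 that were above 0 in mdx vehicle, and 27 were listed at 0 in mdx vehicle alone of those groups. Dlk1, a membrane ligand of the Notch family found in regenerating muscle, was at 1.76, 1.11 and 1.32 CPM in mdx vehicle and was listed at 0 with GTx-026 and in wildtype. Pla2g5, a secreted phospholipase, was at 0.958, 0.445 and 0.598 CPM in mdx vehicle and at 2.63, 1.55 and 2.57 CPM in wildtype, and was listed at 0 with GTx-026. In the other direction, Fscn2, an actin-bundling protein, was at 1.40, 1.06 and 0.706 CPM with GTx-026 and was listed at 0 in both vehicle groups. The same held for Gldc, a subunit of the glycine cleavage system, at 0.684, 0.683 and 0.706 CPM. These genes were chosen after their values were seen.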
